A study of Mus musculus with 42 samples.

Results

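Newborn mice that lack Nfe2l2, the gene of the transcription factor NRF2, were compared after 2 days of hyperoxia and after the same 2 days in room air. The comparison took the 3 arrays whose titles give knockout, day 2 and O2, and the 3 whose titles give knockout, day 2 and air, which is 6 of the 42 arrays of the series. The series holds 14 groups of 3 arrays, from wild-type and knockout whole lung at P1 to P4 in air and at P2 to P4 in hyperoxia. All 6 mice here were labelled Nrf-/- and P3, with P1 counted as day 0 of exposure, so both groups carry the knockout and their labels differ in the gas alone. The hyperoxia group breathed at least 95% oxygen for 23 h a day, with the dams changed between oxygen and air. Each array carried RNA from the lung homogenate of 1 mouse. The construction of the allele, the strain background and the use of littermates are unknown here. The p-values below set each change against the spread between mice within all 14 groups of the series, not within these 6 mice alone.

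NRF2 binds antioxidant response elements and drives genes for glutathione synthesis, quinone reduction and the thioredoxin system. Oxygen at high concentration damages DNA and proteins in the lung. Damaged DNA activates p53, which induces cell cycle arrest and repair genes, while unfolded or oxidised proteins activate the ATF4 and ER stress programmes. The newborn mouse lung is still dividing and forming alveoli, so cell cycle genes are part of its normal expression.

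Values are log2 expression levels from RMA, a method that summarises the probes of a set to 1 value per array, and a difference of 1 is a 2-fold difference. Differences are hyperoxia minus air with the SE of the fit, and a gene was called changed at a limma adjusted p (Benjamini-Hochberg over all 18194 genes) under 0.05. The arrays resembled their labels and tissue. The Nfe2l2 probe set with the highest mean read 4.26, 4.45 and 4.34 in the air knockouts and 4.72, 4.70 and 4.31 in the hyperoxia knockouts, against 10.63, 10.77 and 10.63 in wild-type mice in air at P3. All knockout values lay near the 10th percentile of their arrays, which was 4.54 to 4.66. Another Nfe2l2 probe set behaved differently. It read 8.06, 8.21 and 8.74 in the air knockouts and 6.26, 6.29 and 6.65 in the hyperoxia knockouts, and the means of the other knockout groups lay between 5.42 and 6.70. No label says which part of the gene is deleted, so that probe set checks nothing. Surfactant gene Sftpc (14.69, 14.69 and 14.67 in air, 14.71, 14.70 and 14.75 in hyperoxia) and the alveolar type 1 gene Ager (14.28, 14.33 and 14.43, then 14.35, 14.33 and 14.41) were among the brightest genes, and neither was called. In whole lung, fewer cells of a type and less RNA per cell cannot be told apart.

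Air replicate 2 stood apart from the other 5 arrays by its skeletal muscle transcripts, and air replicate 3 did so to a smaller degree. The mean of 15 skeletal muscle genes, each centred on its mean over the 42 arrays, was 0.08, 4.73 and 1.60 in air replicates 1 to 3, and -0.43, 0.01 and -0.45 in the hyperoxia mice. Many of the counts and calls that moved without air replicate 2 are given beside the results they belong to. The medians over all probe sets of the 42 arrays lay between 6.31 and 6.40.

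Hyperoxia changed 2288 genes in the knockout lung, 12.6% of those tested, with 1614 higher (8.87%) and 674 lower (3.7%). Of these, 110 were at least 2-fold higher (0.605%) and 51 at least 2-fold lower (0.28%). Rises made up 70.5% of the calls, but 53.3% after cyclic loess normalisation (1415 higher and 1238 lower), so the balance of rises and falls rests on the scaling. Without air replicate 2 the fit called 1174 higher (6.45%) and 415 lower (2.28%), of which 1107 and 365 were also called with it. Without hyperoxia replicate 3 it called 951 higher and 405 lower. The median change over all genes was 0.01.

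The largest rises among genes whose groups did not overlap were those of Eda2r, Ptgs2, Psrc1, Ddias and Cpt1c, followed by 7 genes with changes of 1.86 to 2.10. Eda2r, a TNF receptor family member and p53 target, read 4.54, 4.81 and 5.03 in air and 8.77, 8.23 and 8.80 in hyperoxia, a change of 3.81 ± 0.26 (adjusted p = 9.67e-12). Its air values lay near the 10th percentile of the arrays. Ptgs2, the inducible cyclooxygenase, rose from 4.79, 4.84 and 4.57 to 7.78, 7.35 and 7.94 (2.96 ± 0.40, adjusted p = 5.76e-06), and its air values were as dim. Psrc1, a spindle protein, rose by 2.86 ± 0.29, although 1 of its 3 probe sets showed -0.04. Ddias, an apoptosis suppressor induced by DNA damage, rose by 2.78 ± 0.27. Cpt1c, a carnitine palmitoyltransferase, rose by 2.11 ± 0.16.

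Cyp1a1, the aryl hydrocarbon receptor's best known target, rose from 6.44, 6.76 and 7.17 to 8.90, 8.81 and 8.98 (2.10 ± 0.40, adjusted p = 0.000466). Of 9 measured targets of that receptor Cyp1a1 alone was called, beside 8.87% of all genes called higher, and the list's median change was 0.15. Ccne2, cyclin E2, read 7.02, 6.51 and 6.56 in air and 8.71, 8.66 and 8.75 in hyperoxia (2.00 ± 0.29, adjusted p = 1.79e-05). The hyperoxia values of Ccne2 resembled those of wild-type mice in air, which were 8.89, 8.69 and 8.72. The stress-induced chromatin protein gene Nupr1 rose by 1.99 ± 0.20, the growth factor-induced transcription factor gene Egr1 by 1.93 ± 0.24, and the monocyte attractant gene Ccl2 by 1.93 ± 0.27. The p53 target Ccng1 rose by 1.87 ± 0.18 and the thiamine transporter gene Slc19a2 by 1.86 ± 0.17. In each of the 12 genes the lowest hyperoxia mouse lay above the highest air mouse, which the rule required.

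**Figure D1:**
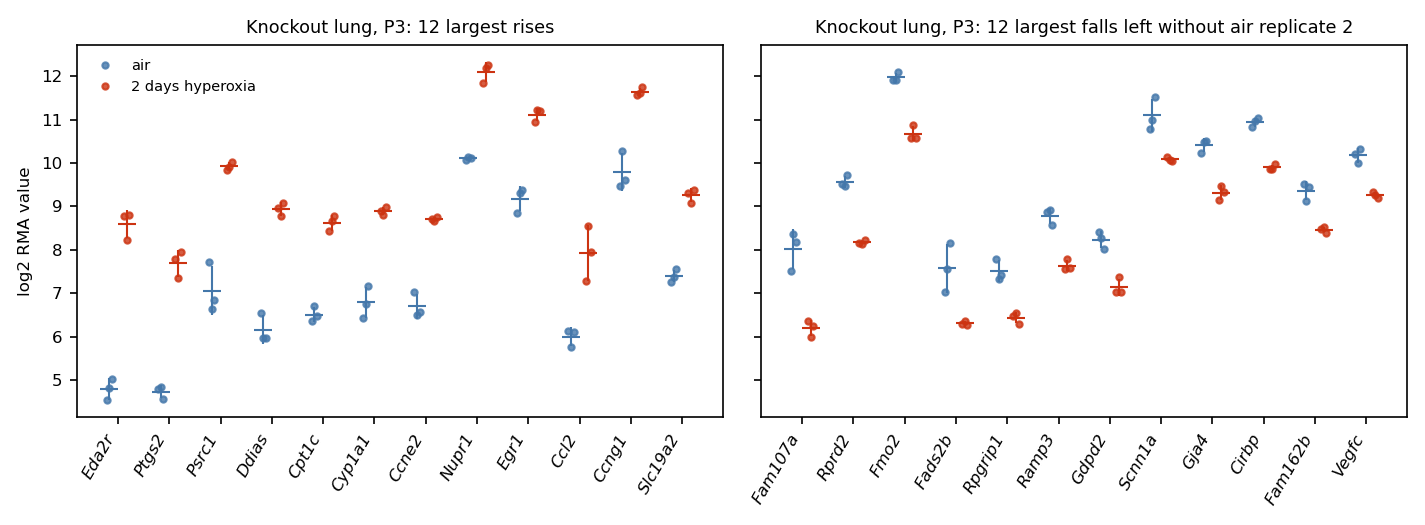
Log2 RMA value in each of the 3 air and 3 hyperoxia knockout lungs of P3, for the 12 largest called rises (left) and the 12 largest called falls once air replicate 2 was left out of the fit (right). Points are single mice, with all 3 air mice drawn, and bars are group means with SD. Eda2r is at 4.54 to 5.03 in air and 8.23 to 8.80 in hyperoxia, and Fmo2 lies at 11.92 to 12.09 and 10.57 to 10.87.

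Most targets of p53 rose. Of 26 measured, 19 rose, none fell and 7 were not called, with a median change of 0.73. Over all genes 8.87% were called higher and 3.7% lower. Without air replicate 2, 16 rose, beside 6.45% of all genes. Phlda3, a repressor of Akt signalling, read 9.19, 9.34 and 9.27 in air and 10.79, 10.84 and 10.90 in hyperoxia (1.58 ± 0.10, adjusted p = 4.75e-12). Zmat3, an RNA-binding protein gene, rose by 1.83 ± 0.12, the exonuclease gene Aen by 1.56 ± 0.11, and the translesion polymerase gene Polk by 1.31 ± 0.11. Cdkn1a, the p21 inhibitor of cyclin-dependent kinases, rose from 10.42, 11.44 and 11.06 to 12.30, 12.25 and 12.35 (1.33 ± 0.16, adjusted p = 1.03e-06). Its air mice were spread far more widely than its hyperoxia mice, and air replicate 1 was the lowest. Mdm2, the ubiquitin ligase that p53 induces to limit itself, rose by 0.72 ± 0.09, and the sestrin gene Sesn2 by 0.98 ± 0.14.

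The mean of the p53 list was -0.37, -0.36 and -0.34 in the 3 air knockouts and 0.58, 0.57 and 0.69 in the 3 hyperoxia knockouts. Wild-type mice of the same age scored -0.33, -0.43 and -0.45 in air and 0.62, 0.80 and 0.84 in hyperoxia. The median change of the list was 1.07 in wild type, 0.36 in knockouts after 1 day and 1.09 after 3 days, given here as values. Among 20 list members with a RefSeq promoter, 1 held the letters CATG repeated after 6 further bases, the core of a p53 site, in the 250 bases before its start, as did 0.49% of all 32851 promoters. That gene was Cdkn1a, and the stretch is shown because Cdkn1a is the list's cell cycle arrest gene. It is given on GRCm38.p6, read 5′ to 3′ on the gene's strand, with the matched letters in capitals, and the match lies 34 bases before the annotated start.
Cdkn1a, chr17:29090907-29090968, plus strand: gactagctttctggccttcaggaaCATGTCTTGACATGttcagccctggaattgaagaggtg

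A wider definition of the p53 pair matched 4 of the 20 promoters, against 3.85% of all promoters. In this and the other promoter counts a match says only that the letters are present. List counts are of genes with a match in any of their promoters, while the percentages are of single promoters.

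ATF4 drives genes that answer amino acid shortage and ER stress. Of 22 such genes measured, 10 rose, none fell and 12 were not called, with a median change of 0.32. Over all genes 8.87% were called higher and 3.7% lower. Without air replicate 2, 9 rose, beside 6.45% of all genes. After cyclic loess normalisation 10 were higher and 1 lower. Nupr1 read 10.07, 10.15 and 10.11 in air and 11.84, 12.19 and 12.26 in hyperoxia. The pro-apoptotic factor gene Ddit3 (CHOP) rose by 0.74 ± 0.09, and Chac1, which degrades glutathione, by 1.12 ± 0.17. Rises of 0.54 ± 0.08 for the amino acid transporter chain Slc3a2, 1.00 ± 0.20 for the stress factor Atf3 and 0.61 ± 0.15 for the pseudokinase Trib3 were also called. Trib3 was named after its values were seen. Asns, asparagine synthetase, was named after its values were seen because its promoter holds the motif below, and it rose by 0.70 ± 0.14 (adjusted p = 0.00105). The ATF4 composite letters TGATGNAA were found on either strand in 7 of 19 list promoters, 4 of them among the 10 called genes with a promoter and 3 among the 9 not called, and in 3.45% of all promoters. The stretches around the match in the 4 called genes follow, with the matched letters in capitals, which read TTGCATCA where the match is on the other strand.
Asns, chr6:7693210-7693258, minus strand: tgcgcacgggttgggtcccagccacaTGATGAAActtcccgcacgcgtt
Chac1, chr2:119351023-119351082, plus strand: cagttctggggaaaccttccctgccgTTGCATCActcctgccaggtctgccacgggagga
Atf3, chr1:191183410-191183469, minus strand: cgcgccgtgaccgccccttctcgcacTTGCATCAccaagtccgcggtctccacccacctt
Nupr1, chr7:126625547-126625606, minus strand: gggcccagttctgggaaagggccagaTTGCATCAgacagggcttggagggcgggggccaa

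Genes that copy DNA formed the list with the highest share of calls beside p53. Of 31 measured, 22 rose, none fell and 9 were not called, with a median change of 0.76, and 16 rose without air replicate 2. Over all genes 8.87% were called higher and 3.7% lower, or 6.45% and 2.28% without air replicate 2. Pola1, the catalytic subunit of the polymerase that starts each DNA strand, read 7.44, 7.47 and 7.16 in air and 8.67, 8.61 and 8.76 in hyperoxia (1.32 ± 0.21, adjusted p = 7.41e-05), but its other probe set showed -0.05. Prim1, its primase partner, rose by 1.01 ± 0.21, the helicase loading factor gene Cdc45 by 1.06 ± 0.22, and the clamp loader gene Rfc5 by 0.76 ± 0.16. The cyclin genes Ccnd1 and Ccnd2 and the kinase genes Cdk4 and Cdk2, which drive cells into S phase, rose by 0.86 ± 0.13, 0.47 ± 0.10, 0.50 ± 0.09 and 0.40 ± 0.10. In the list of cyclins and Cdk inhibitors, 5 of 14 rose and 1 fell, a fall not called without air replicate 2.

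Of 29 genes of mitosis, none was called by limma in either direction, 3 were higher at an unadjusted p under 0.05, and the median change was 0.43. The proliferation marker Mki67 read 10.09, 9.61 and 9.56 in air and 9.90, 10.22 and 9.93 in hyperoxia, so the groups overlapped (0.26 ± 0.28, adjusted p = 0.658). Air replicate 1 scored 0.31 on the mitosis list and the other air mice -0.50 and -0.42, against 0.10, 0.25 and 0.22 in hyperoxia.

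The level of the DNA replication list differed between the air groups as well. Its mean was -0.18, -0.52 and -0.44 in the air knockouts of P3 and 0.36, 0.35 and 0.42 in the hyperoxia knockouts. Wild-type mice of that age scored 0.49, 0.34 and 0.37 in air and 0.34, 0.61 and 0.41 in hyperoxia, and knockouts in air at P4 scored 0.55, 0.37 and 0.61. The air knockouts of P3 lay below all of these, and the hyperoxia knockouts lay within their range. Other knockout groups overlapped the air knockouts of P3, with 0.69, -0.57 and -0.10 in air at P2 and -0.10, -0.23 and -0.06 after 3 days of hyperoxia. For 30 of the 31 genes the mean of the air knockouts was below that of the wild-type air mice, with a median difference of -0.77, against 0.02 over all genes. The part that the air group's own level has in the rise was not tested.

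**Figure D2:**
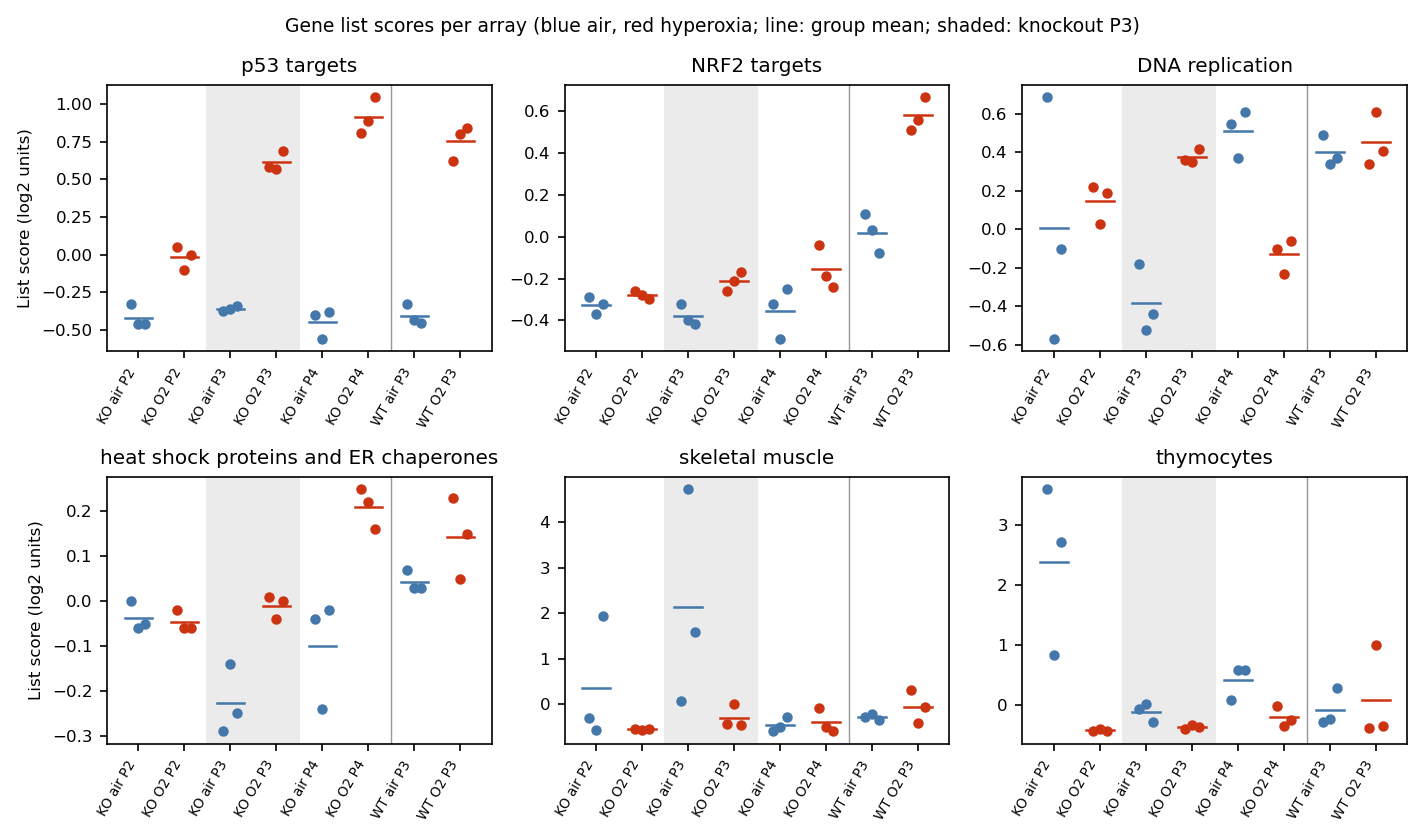
Mean level of 6 gene lists in each array (log2 units), every gene centred on its mean over the 42 arrays, for knockout lungs at P2 to P4 and wild-type lungs at P3. Points are single mice, blue in air and red in hyperoxia, lines are group means and the shading marks the knockouts of P3. In the DNA replication panel the shaded air mice lie at -0.52 to -0.18 and the hyperoxia mice at 0.35 to 0.42, while in the p53 panel the air groups of both genotypes lie together.

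E2F factors, which drive S phase genes, bind TTTCGCGC and TTTGGCGC. These letters, searched on both strands, were present in 6 of 26 replication promoters, in 1 of 24 mitosis promoters and in 0.654% of all promoters. Among the 6, 5 genes were called, and of the 26 with a promoter 18 were called. Mcm5 and Mcm6, subunits of the replicative helicase, rose by 1.04 ± 0.24 and 0.66 ± 0.17. Rfc3, a clamp loader subunit, rose by 0.58 ± 0.15, and Dtl, a substrate receptor that clears licensing factors, by 0.97 ± 0.25. These 4 were named after their values were seen because of the match. The stretches are shown to let the match and its place be compared. The distance from match to start was 0 bases in Dtl, 2 in Rfc3, 98 in Mcm6, 130 in Pola1 and 141 in Mcm5, and in Mcm5 and Mcm6 a pair of matches overlap.
Mcm5, chr8:75109330-75109393, plus strand: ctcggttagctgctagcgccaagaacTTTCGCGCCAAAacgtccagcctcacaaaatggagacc
Mcm6, chr1:128359782-128359841, minus strand: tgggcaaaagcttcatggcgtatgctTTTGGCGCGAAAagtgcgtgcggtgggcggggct
Rfc3, chr5:151651209-151651244, minus strand: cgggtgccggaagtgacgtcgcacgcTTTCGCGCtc
Pola1, chrX:93632260-93632319, minus strand: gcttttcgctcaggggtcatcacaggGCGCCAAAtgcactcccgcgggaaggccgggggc
Dtl, chr1:191575545-191575578, minus strand: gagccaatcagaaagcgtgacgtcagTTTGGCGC

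Chaperones of the endoplasmic reticulum and a few heat shock proteins rose by small amounts. Of 25 measured, 10 rose and none fell, beside 8.87% and 3.7% of all genes. The median change was 0.22, and 9 rose without air replicate 2, beside 6.45% of all genes. Calr, the lectin chaperone calreticulin, read 12.68, 12.71 and 12.63 in air and 13.08, 13.09 and 13.05 in hyperoxia (0.40 ± 0.06, adjusted p = 2.20e-05). Pdia6, a disulphide isomerase, rose from 10.45, 10.46 and 10.46 to 10.83, 10.88 and 11.02 (0.45 ± 0.07, adjusted p = 2.43e-05), but its other probe set showed -0.26, and the mean of the probe sets was not called. The groups did not overlap in either gene. Hsph1 (HSP110) rose by 0.91 ± 0.15, the mitochondrial co-chaperonin gene Hspe1 by 0.52 ± 0.11, and Sdf2l1, of the ER chaperone complex, by 0.51 ± 0.11.

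The mean of the list of heat shock proteins and ER chaperones was -0.29, -0.14 and -0.25 in the air knockouts and 0.01, -0.04 and 0.00 in the hyperoxia knockouts, beside 0.07, 0.03 and 0.03 in wild-type mice in air. Knockouts in air scored 0.00, -0.06 and -0.05 at P2 and -0.04, -0.24 and -0.02 at P4, so 1 mouse of P4 lay among those of P3. For 20 of 25 genes the air knockouts lay below the wild-type air mice, with a median difference of -0.36, against 8539 of all 18194 genes. The part of this difference in the rise was not tested. The strict ER stress element, CCAAT followed after 9 further bases by CCACG, was found on either strand in 6 of 22 list promoters and in 0.113% of all promoters. All 6 genes rose, as did 9 of the 22 with a promoter. The looser form, which ends in CC in place of CCACG, matched 10 of the 22 and 3.81% of all promoters, and CCACG alone matched 16 of the 22 and 28.3%. Hspa5, the main ER chaperone BiP, rose by 0.24 ± 0.07, Hsp90b1 (GRP94) by 0.26 ± 0.08, calnexin gene Canx by 0.22 ± 0.06 and Creld2 by 0.33 ± 0.08, and these 4 were named after their values were seen. Without air replicate 2, Hsp90b1 (0.23, adjusted p = 0.0999) and Canx (0.20, adjusted p = 0.0854) were not called. The 6 stretches follow, with the element in capitals. In Calr and Creld2 it lies on the opposite strand.
Hspa5, chr2:34772005-34772063, plus strand: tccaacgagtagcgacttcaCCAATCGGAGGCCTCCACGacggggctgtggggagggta
Hsp90b1, chr10:86705618-86705676, minus strand: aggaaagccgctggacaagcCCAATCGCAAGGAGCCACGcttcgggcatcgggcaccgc
Calr, chr8:84847055-84847113, minus strand: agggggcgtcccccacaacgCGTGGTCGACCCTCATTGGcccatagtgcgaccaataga
Canx, chr11:50325780-50325838, minus strand: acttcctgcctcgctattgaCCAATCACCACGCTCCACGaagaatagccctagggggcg
Pdia6, chr12:17266471-17266529, plus strand: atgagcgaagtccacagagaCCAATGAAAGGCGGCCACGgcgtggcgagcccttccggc
Creld2, chr15:88819500-88819558, plus strand: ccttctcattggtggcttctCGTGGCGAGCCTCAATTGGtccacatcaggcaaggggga

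Of the NRF2 targets, 7 of 31 measured rose and none fell, beside 8.87% and 3.7% of all genes. Their median change was 0.13. The fit without air replicate 2 called 5 rises among them, beside 6.45% of all genes. By far the largest rise was that of Ephx1, microsomal epoxide hydrolase, from 9.02, 8.86 and 8.94 to 10.37, 10.50 and 10.75 (1.60 ± 0.11, adjusted p = 1.33e-11). Gclc, the catalytic subunit of glutathione synthesis, rose by 0.55 ± 0.14, the transaldolase gene Taldo1 by 0.32 ± 0.07, the glutathione transferase gene Gstp1 by 0.36 ± 0.08 and thioredoxin gene Txn1 by 0.21 ± 0.06. Txnrd1, thioredoxin reductase, rose by 0.30 ± 0.09 (adjusted p = 0.0289), a call lost without air replicate 2 (0.28, adjusted p = 0.0875). Nqo1, the quinone reductase often used to read NRF2 activity, was 6.46, 6.39 and 6.17 in air and 6.61, 6.39 and 6.47 in hyperoxia, and the groups overlapped (0.15 ± 0.16, adjusted p = 0.647).

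The glutathione peroxidase gene Gpx2 overlapped in the same way (6.39, 6.11 and 6.13, then 6.03, 6.55 and 6.25), as did the sulfiredoxin gene Srxn1, with 0.17 ± 0.16, and Gclm, the modifier subunit of glutathione synthesis, with 0.02 ± 0.12. Hmox1, the haem-degrading enzyme, read 7.97, 7.98 and 7.96 in air and 8.29, 8.33 and 8.41 in hyperoxia. The groups did not overlap, but the change was not called (0.38 ± 0.13, adjusted p = 0.0555). The antioxidant element TGACNNNGC was in 5 of 25 list promoters and in 10.2% of all promoters. The metal-binding genes Mt1 and Mt2 were not called, with 0.25 ± 0.26 and 0.29 ± 0.29.

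Inflammatory genes rose in part, beside 8.87% called higher and 3.7% lower over all genes. Among prostaglandin genes 5 of 20 rose and none fell, with a median change of 0.24, and 4 rose without air replicate 2. Ptger3, a prostaglandin E2 receptor gene, read 7.41, 7.26 and 7.29 in air and 8.92, 9.17 and 9.02 in hyperoxia (1.72 ± 0.20, adjusted p = 5.19e-07), while its other probe set showed 0.13. The related receptor gene Ptger4 rose by 0.87 ± 0.17 and Pla2g4a, the phospholipase that frees arachidonic acid, by 0.64 ± 0.12. Of 27 chemokines, 8 rose and 1 fell, with a median of 0.22, and 6 rose and 1 fell without air replicate 2. Ccl2 was 6.14, 5.76 and 6.11 in air and 7.28, 8.56 and 7.96 in hyperoxia, with hyperoxia replicate 1 the lowest of its group. Ccl12, another monocyte attractant, rose by 1.14 ± 0.16, and the myeloid chemokine genes Ccl9 and Ccl6 by 1.71 ± 0.27 and 1.23 ± 0.29. Cxcl16 rose by 0.40 ± 0.10, and the neutrophil attractant gene Cxcl1 was not called, with 0.20 ± 0.13. Its other probe sets showed 0.59 and 1.13, the latter with an adjusted p of 0.0306 when every probe set was tested.

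The NF-kB, Il1 and Tnf list had 8 rises in 23 genes, with a median of 0.29, and 4 without air replicate 2. The adhesion molecule gene Vcam1 rose by 1.02 ± 0.19, the NF-kB subunit gene Relb by 0.68 ± 0.16, and the cytokine genes Il18 and Il33 by 0.62 ± 0.14 and 0.73 ± 0.17. In the Il6 and Stat3 list 3 of 18 rose and 1 fell, beside 8.87% and 3.7% over all genes. Its rises were Socs3, the feedback inhibitor (0.91 ± 0.18), the oncostatin M receptor gene Osmr (0.74 ± 0.15) and the cytokine gene Lif (1.02 ± 0.23). Il6 itself read 4.15, 3.99 and 3.98 in air and 4.68, 5.16 and 4.86 in hyperoxia, all near or below the 10th percentile in air, and was not called (adjusted p = 0.138). The acute phase gene Saa3 was not called either, at 0.69 ± 0.41 (adjusted p = 0.313).

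Interferon-induced genes had 11 rises in 23 measured and no fall, beside 8.87% and 3.7% of all genes. Their median was 0.36, and 8 rose without air replicate 2, beside 6.45% of all genes. Oasl2, an antiviral oligoadenylate synthetase-like gene, read 5.14, 5.48 and 5.27 in air and 6.34, 6.74 and 6.73 in hyperoxia (1.31 ± 0.24, adjusted p = 0.000369), with all air values low on the array. The ISG15 protease gene Usp18 rose by 1.10 ± 0.21, the GTPase gene Gbp2 by 0.99 ± 0.21, the tetherin gene Bst2 by 0.64 ± 0.12 and Xaf1 by 0.58 ± 0.13. The list's mean was -0.32, -0.26 and -0.31 in the air knockouts, 0.02, 0.18 and 0.16 in the hyperoxia knockouts, and 0.07, -0.27 and -0.21 in wild-type air mice. For this interferon response list, knockouts in air scored 0.51, 0.21 and -0.06 at P2 and 0.17, -0.08 and 0.28 at P4, so the air knockouts of P3 were lower than both and the hyperoxia knockouts lay within their range. The part of the low air level in the rise was not tested. The interferon element, GAAA repeated after 2 further bases, was in 8 of 17 list promoters and in 2.98% of all promoters, 4 of the 8 belonging to called genes.

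Macrophage markers rose beside these lists, and whether more macrophages or more RNA per macrophage lay behind this was not tested. Of 16 measured, 5 rose without air replicate 2. With all arrays 6 rose, with a median of 0.45. They included the scavenger receptor gene Msr1 (1.18 ± 0.17), the mannose receptor gene Mrc1 (0.82 ± 0.13), Cd68 (1.12 ± 0.22) and Adgre1, a macrophage surface receptor (0.50 ± 0.12). The mean of the macrophage list was -0.57, -0.06 and -0.45 in air and -0.08, -0.04 and 0.09 in hyperoxia, so air replicate 2 lay with the hyperoxia mice. None of the 14 neutrophil markers was called by limma (2 higher and 1 lower at an unadjusted p under 0.05), and their list mean was -0.25 to 0.01 in air and -0.01 to 0.02 in hyperoxia. Beside 8.87% of all genes, 2 of 11 lymphocyte markers rose (1 without air replicate 2), among them the B cell gene Ms4a1 (1.08 ± 0.26). The galectin gene Lgals3, listed with injured epithelium, rose by 0.76 ± 0.19 and the lipopolysaccharide co-receptor gene Cd14 by 0.80 ± 0.24, the latter not called without air replicate 2. Of 18 injured epithelium genes Lgals3 alone was called, and that list's median change was -0.04. Timp1, an inhibitor of matrix metalloproteinases, rose by 1.24 ± 0.22.

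**Figure D3:**
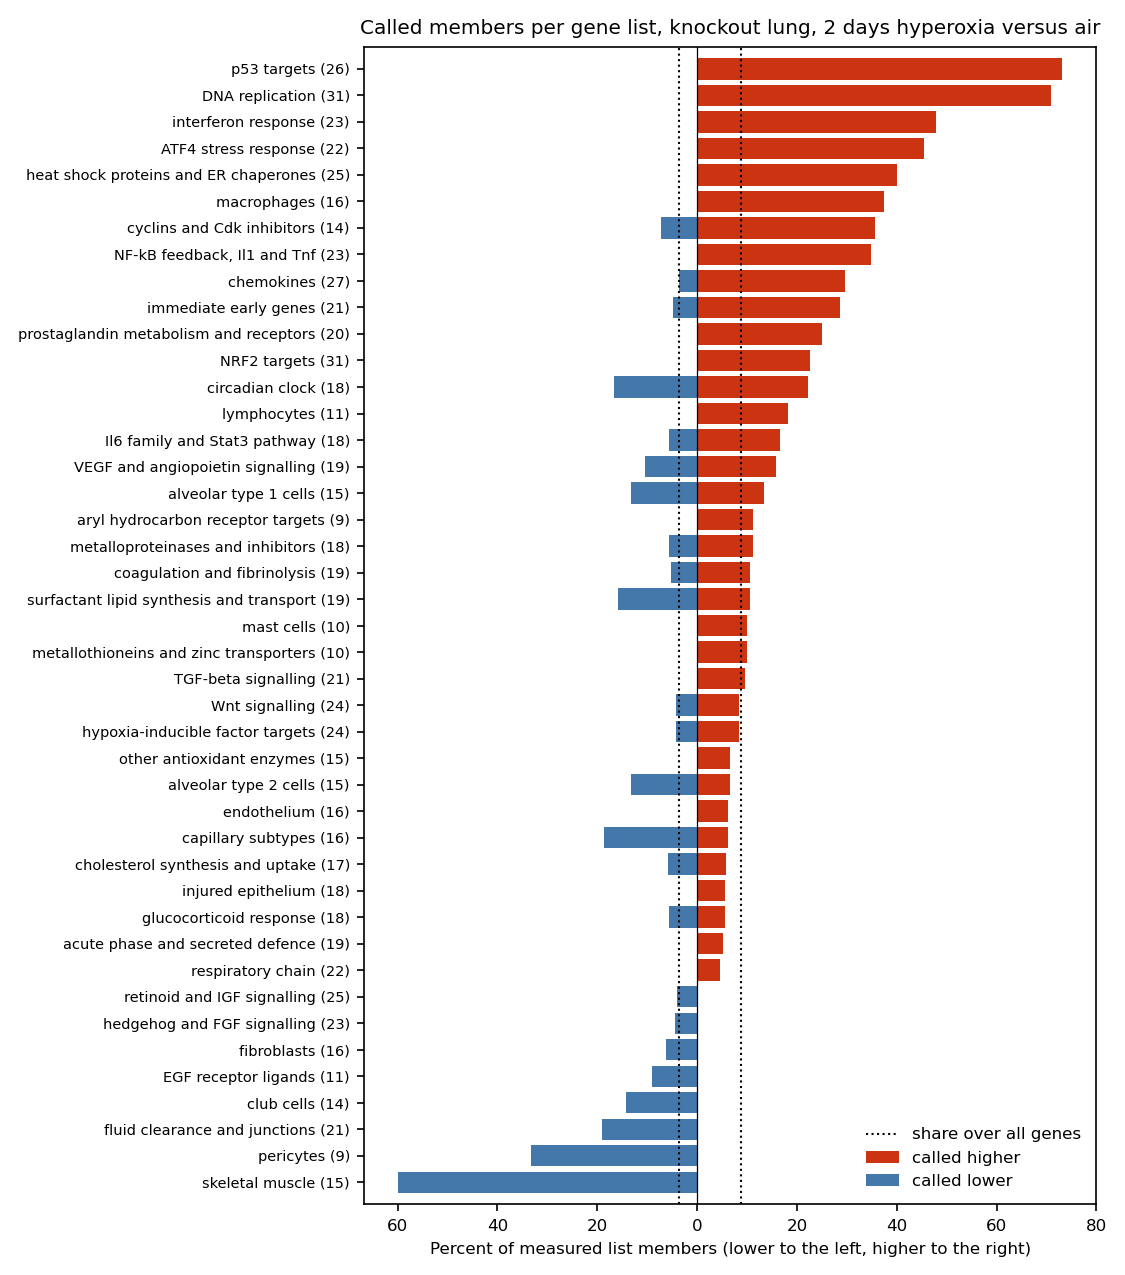
Share of each gene list's measured members that were called higher or lower after 2 days of hyperoxia in the knockout lung (percent), beside the share over all genes. The p53 list (19 of 26) and the DNA replication list (22 of 31) have the highest shares of rises, against 8.87% over all genes.

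Immediate early genes, which growth factors and stress switch on within minutes, had 6 rises and 1 fall in 21, and 5 rises and no fall without air replicate 2. Egr1 read 8.86, 9.31 and 9.38 in air and 10.94, 11.22 and 11.19 in hyperoxia, and its relative Egr2 rose by 1.32 ± 0.22. Myc and Junb rose by 0.89 ± 0.26 and 0.69 ± 0.20. Of 18 clock genes 4 rose and 3 fell, beside 8.87% and 3.7% of all genes. Without air replicate 2, 3 rose and 2 fell. The clock output factor gene Dbp rose by 1.12 ± 0.26, the repressor genes Nr1d2 and Bhlhe40 by 0.89 ± 0.18 and 0.63 ± 0.14, while Cry2 fell by 0.54 and Arntl, the BMAL1 activator, fell by 0.41. Arntl was not called without air replicate 2 (-0.35, adjusted p = 0.0617). Per1 overlapped between the groups (-0.28 ± 0.28). No label gives the hour at which lungs were taken, so hour and gas cannot be told apart for these genes. The glucocorticoid target Fkbp5, with -0.56 ± 0.30, and the lung methyltransferase gene Inmt, with -0.35 ± 0.27, were not called.

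The largest falls were all of skeletal muscle genes and rested on air replicate 2. Tnnc2, fast troponin C, read 6.81, 14.06 and 10.52 in air and 5.35, 6.56 and 5.28 in hyperoxia (-4.73 ± 1.25, adjusted p = 0.0101). Without air replicate 2 it was not called (-2.93, adjusted p = 0.134). The same held for the other 11 genes with the largest falls, namely Myl1, Myh8, Mylpf, Atp1b4, Tceal7, Neb, Atp2a1, Mybpc1, Tnni2, Casq1 and Klhl41, whose fitted changes were -4.35 to -2.03. In the muscle list 9 of 15 fell, beside 3.7% of all genes, and none did without that array.

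With air replicate 2 left out, 11 of the 51 genes with a called fall of at least 2-fold remained. The falls named in this paragraph were picked from that fit after the data were seen. Fmo2, the lung's flavin monooxygenase, read 11.92, 11.92 and 12.09 in air and 10.57, 10.87 and 10.59 in hyperoxia (-1.30 ± 0.20, adjusted p = 3.97e-05), and all 5 of its probe sets showed a fall. Rprd2, which binds the tail of RNA polymerase II, went from 9.51, 9.47 and 9.72 to 8.16, 8.14 and 8.22 (-1.39 ± 0.20), but most of its 8 probe sets did not show it. Ramp3, a receptor partner for adrenomedullin, fell by 1.15, and Gja4, the arterial connexin 37, fell by 1.09. Cirbp, the cold-inducible RNA-binding protein, fell by 1.04 with both groups tight (10.83, 10.96 and 11.03 in air, 9.87, 9.87 and 9.97 in hyperoxia). The other genes chosen in this way, with their changes over all arrays, were Fam107a (-1.83), Fads2b (-1.27), Rpgrip1 (-1.08), Gdpd2 (-1.09), Fam162b (-0.90) and the lymphatic growth factor gene Vegfc (-0.91), all called. For Rpgrip1 the other 3 probe sets showed 0.00, -0.17 and 0.13, and the mean of its probe sets was not called.

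Fluid clearance genes, which move salt and water out of the airspace after birth, had 4 falls in 21 and no rise. They had 2 falls without air replicate 2 and 7 after cyclic loess normalisation. The list's mean was 0.05, 0.16 and 0.30 in the air knockouts and 0.01, -0.01 and 0.04 in the hyperoxia knockouts. Wild-type air mice of P3 scored -0.20, -0.12 and -0.22. Knockouts in air scored -0.15, 0.22 and -0.17 at P2 and -0.31, -0.44 and -0.31 at P4. The part of the air group's own level in the falls was not tested. Scnn1a, the alpha subunit of the epithelial sodium channel, read 10.79, 10.99 and 11.53 in air and 10.14, 10.08 and 10.06 in hyperoxia (-1.01 ± 0.17, adjusted p = 0.000101). The water channel gene Aqp1 fell by 0.53. The water channel gene Aqp5 (-0.46) and the sodium pump subunit gene Atp1b1 (-0.45) fell with all arrays, and neither was called without air replicate 2. Among vessel genes, the pericyte genes Pdgfrb, Kcnk3 and Cox4i2 fell by 0.37, 0.69 and 0.53, 3 of 9 measured, and Cox4i2 was not called without air replicate 2. Of 16 capillary genes 1 rose and 3 fell, with 1 rise and 2 falls without air replicate 2. Apln, the ligand, rose by 0.75 ± 0.13, and its receptor gene Aplnr fell by 0.56. Over all genes 8.87% were called higher and 3.7% lower, or 6.45% and 2.28% without air replicate 2. In the VEGF and angiopoietin list 3 of 19 rose and 2 fell, with 1 rise without air replicate 2. Outside that list, the angiopoietin-like gene Angptl4 rose by 0.92 ± 0.17 and the endothelial TGF-beta co-receptor gene Eng by 0.55 ± 0.10. Of 16 endothelium markers Eng alone was called, and that list's median change was -0.16. In 9 of the 16 all hyperoxia mice lay below all air mice, and in 3 above, beside 12.5% and 20.8% of all genes. Vegfa (-0.06 ± 0.15) and its receptor gene Kdr (0.12 ± 0.14) were not called.

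Of 15 alveolar type 1 markers 2 rose and 2 fell, beside 12.6% of all genes called. Without air replicate 2, 1 rose and 1 fell, and after loess 2 rose and 4 fell. Rtkn2 rose by 0.86 ± 0.22, and caveolin gene Cav1 fell by 0.27. Of 15 type 2 markers 1 rose and 2 fell, with 1 rise and no fall without air replicate 2, among them the collectin gene Sftpd, which fell by 0.37 and was not called without air replicate 2. Of 14 club cell markers 2 fell, beside 3.7% of all genes, and Cckar, a cholecystokinin receptor gene, fell by 0.77. No gene was called by limma among 15 for elastic fibres, 19 collagens, 25 proteasome subunits and 15 ciliated cell markers. At an unadjusted p under 0.05, 1 elastic fibre gene was lower, no collagen passed, and 3 proteasome and 2 ciliated cell genes were higher. Elastin gene Eln read 13.84, 13.69 and 13.79 in air and 13.38, 13.62 and 13.44 in hyperoxia (-0.30 ± 0.13, adjusted p = 0.157), so its groups did not overlap but it was not called.

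Some smaller changes rested on single arrays besides air replicate 2. Without hyperoxia replicate 1, Aplnr, Atp1b1, Canx, Cckar, Hsp90b1, Rtkn2, Txnrd1 and the muscle genes Casq1 and Klhl41 were not called, with adjusted p of 0.0523 to 0.102. Without hyperoxia replicate 2 the same held for Aplnr, Aqp5, Arntl, Atp1b1, Cd14, Cox4i2, Myc, Sftpd, Casq1 and Klhl41 (0.0516 to 0.157). Without hyperoxia replicate 3 it held for 18 named genes, 4 of muscle and otherwise Aqp5, Atp1b1, Canx, Ccl6, Cd14, Cox4i2, Gclc, Hsp90b1, Hspa5, Junb, Ms4a1, Myc, Sftpd and Txnrd1 (0.0504 to 0.129). Without air replicate 1 it held for Cd14, Cox4i2, Junb, Lgals3, Myc and Rpgrip1 (0.0511 to 0.0874), and without air replicate 3 for Aplnr, Aqp5, Atp1b1, Canx, Cox4i2, Hsp90b1, Hspa5, Junb, Myc, Sftpd and Txnrd1 (0.0549 to 0.161). The sign of every one of these changes stayed as it was. With marker levels of other tissues added to the fit, 26 named genes were not called, 12 of muscle and otherwise Aplnr, Arntl, Atp1b1, Canx, Cd14, Creld2, Cxcl16, Gclc, Hsp90b1, Hspa5, Il33, Trib3, Txn1 and Txnrd1. As the mean of all its probe sets, the change was not called for Arntl, Canx, Dtl, Hspa5, Pdia6, Rpgrip1, Rprd2, Txn1 and Txnrd1 (adjusted p of 0.0548 to 0.572). With limma fitted on the arrays of the comparison alone, 17 named genes were not called (adjusted p of 0.0524 to 0.29). Of these, 12 were of muscle and the others were Canx, Hsp90b1, Hspa5, Il18 and Txn1.

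Whether the knockout answered 2 days of oxygen differently from the wild type was asked of the difference between their changes, knockout minus wild type, over arrays that the genotypes do not share. It was called for 320 genes (1.76%), 243 positive (1.34%) and 77 negative (0.423%). Positive differences were 75.9% of these, but 52.8% after cyclic loess normalisation (245 positive and 219 negative) and 57.3% with array weights. The count also rested on single arrays. It was 157 and 152 without wild-type air replicate 1 or 2, 143 without wild-type hyperoxia replicate 1, 211 and 191 without knockout air replicate 2 or 3, and 168 and 137 without knockout hyperoxia replicate 1 or 3. Liver transcripts in the wild-type air mice (list means of -0.78, 4.59 and 1.86) and heart muscle transcripts in wild-type hyperoxia replicate 1 (3.16) moved beside this comparison. With scores of liver, heart muscle, skeletal muscle and thymocyte genes as covariates, 369 genes were called, 281 positive and 88 negative. Beyond that fit, the part of these transcripts in the comparison was not tested.

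NRF2 targets gave 8 negative differences in 31 and no positive, beside 0.423% and 1.34% of all genes. Gpx2 rose in wild type from 7.45, 7.24 and 7.10 to 9.71, 9.51 and 9.73, which the knockouts did not show, and the difference was -2.32 ± 0.22 (adjusted p = 1.33e-07). For Srxn1 the wild-type change was 1.25 and the difference -1.08 ± 0.22 (adjusted p = 0.00826). Hmox1 differed by -0.81 ± 0.19 and Txnrd1 by -0.50 ± 0.13, while the difference of -0.72 ± 0.23 for Nqo1 was not called (adjusted p = 0.106). Leaving out 1 of the 12 arrays ended the call in 2 cases for Hmox1 (-0.79 and -0.74) and in 11 for Txnrd1 (-0.53 to -0.44). Ephx1 is the exception by size, with a wild-type change of 1.61 beside 1.60 in the knockout. The NRF2 list mean was -0.32, -0.40 and -0.42 in air knockouts, -0.26, -0.21 and -0.17 in hyperoxia knockouts, 0.11, 0.03 and -0.08 in wild-type air mice and 0.51, 0.56 and 0.67 in wild-type hyperoxia mice. With marker levels of other tissues added to the fit, the genotype difference was not called for 8 named genes, Adssl1, Ahnak2, Cdkn1a, Hspa1b, Nr1d2, Slc17a2, Srxn1 and Txnrd1 (adjusted p of 0.0511 to 0.153). As the mean of all probe sets it was not called for Ahnak2, Arntl, Dscc1, Mkrn1, Nr1d2, Pola1, Rprd2 and Txnrd1 (0.0541 to 0.642).

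The largest positive difference was that of Hdc, histidine decarboxylase, the enzyme that makes histamine. It rose in knockouts from 8.53, 8.35 and 8.19 to 9.30, 9.65 and 9.71, and in wild type it went from 10.33, 10.46 and 10.31 to 9.16, 9.22 and 9.60, a difference of 2.24 ± 0.25 (adjusted p = 3.18e-06). The other large positive differences were Slitrk6 (2.02 ± 0.33), Ccne2 (1.88 ± 0.41), the phosphate transporter family gene Slc17a2 (1.72 ± 0.34), the cohesion factor gene Dscc1 (1.54 ± 0.40) and the cAMP phosphodiesterase gene Pde4b (1.43 ± 0.24). The largest negative ones after Gpx2 were Adssl1, the muscle adenylosuccinate synthase (-2.23 ± 0.49), Ahnak2 (-1.41 ± 0.37), the heat shock protein gene Hspa1b (-1.34 ± 0.31), Mkrn1 (-1.31 ± 0.33) and Rprd2 (-1.28 ± 0.28). Leaving out 1 of the 12 arrays ended the call in 11 cases for Dscc1 (1.45 to 1.62), 9 for Ahnak2 (-1.49 to -1.18), 7 for Mkrn1 (-1.38 to -1.18) and 3 for Hspa1b (-1.28 to -1.19). Without wild-type hyperoxia replicate 1, Ccne2 (1.71) and Adssl1 (-2.03) were not called.

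Several genes that rose or fell in the knockout also differed from wild type. Pola1 differed by 1.38 ± 0.30, Ptger3 by 1.36 ± 0.28 and Scnn1a by -1.15 ± 0.24. The list of 25 chaperones had 7 positive differences and 1 negative, beside 1.34% and 0.423% of all genes. Pdia6 (0.80 ± 0.10) and Calr (0.61 ± 0.08) were among the positive, with wild-type changes of -0.34 and -0.21. Median levels in knockouts minus wild type were -0.36 in air and -0.05 in hyperoxia for that list. They were -0.77 and -0.06 for DNA replication, and 0.34 and 0.29 for fluid clearance. Wild-type hyperoxia mice scored 0.23, 0.05 and 0.15 on the chaperone list. The part of the air levels in these differences was not tested. Clock genes Nr1d2 (1.12 ± 0.26) and Arntl (-0.74 ± 0.15) differed in opposite directions. In the p53 list 2 of 26 differences were negative. Cdkn1a was among them (-0.94 ± 0.23), with air knockouts at 10.42, 11.44 and 11.06 and wild-type air mice at 10.04, 10.05 and 10.05, and its difference was not called in 9 of the 12 fits that left out 1 array (-0.96 to -0.70). The same held for Nr1d2 in 4 fits (0.97 to 1.08), and for Pola1 without wild-type hyperoxia replicate 1 (1.28).

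**Figure D4:**
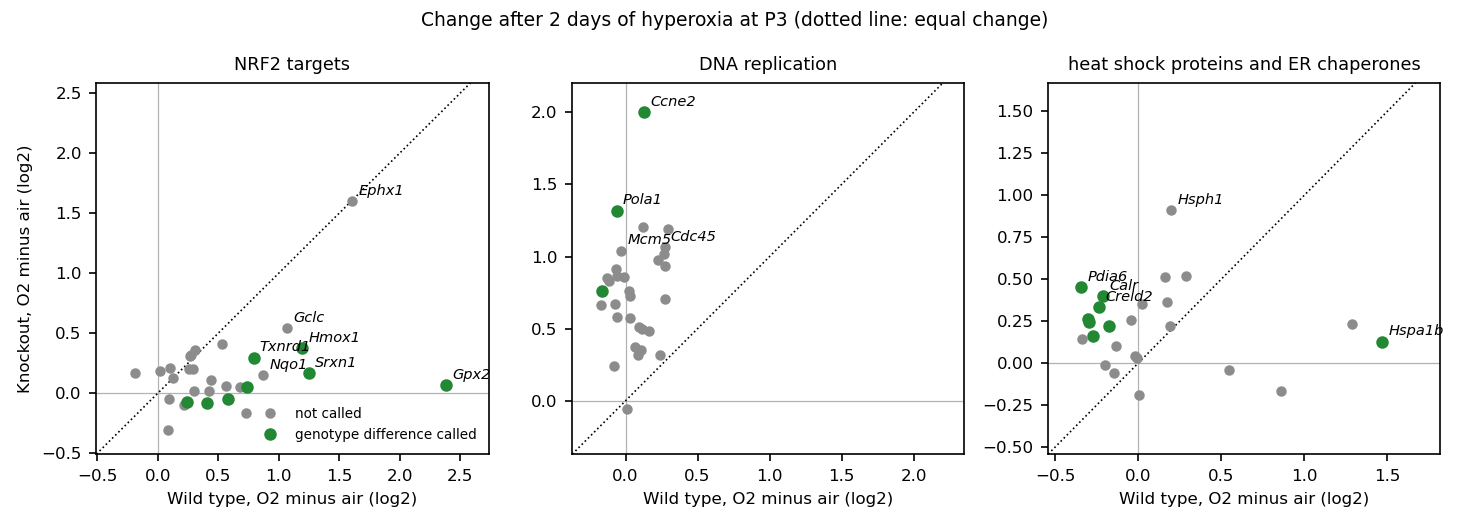
Change after 2 days of hyperoxia in wild-type lung (horizontal, log2) and in knockout lung (vertical, log2) for the NRF2 target, DNA replication and chaperone lists, each point a gene, green where the genotype difference was called and the dotted line marking equal change. Gpx2, at 2.39 in wild type and 0.07 in the knockout, lies far below the line, Ephx1 lies on it, and Ccne2, at 0.13 and 2.00, lies far above it.

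After 1 day of hyperoxia the knockout changes of Eda2r, Psrc1 and Ccng1 were 2.00, 1.65 and 0.65, and after 3 days 4.61, 2.34 and 3.04. The change at day 2 differed from that at day 1 for 1601 genes (8.8%), 926 positive and 675 negative. The largest positive differences were of T cell and thymus genes, Rag1 (5.78), Trbv1 (5.31), Ccr9 (5.09), Cd3g (4.79), Prss16 (4.35) and Bcl11b (4.33). The list of thymocytes had means of 3.60, 0.84 and 2.71 in the knockout air mice of P2. With 3 knockout air arrays rich in muscle or thymus transcripts left out, 120 genes were called and none of these 6, and 41 were called once the levels of other tissues' markers entered the fit as covariates. The count was 718, 3122 and 1055 without air replicate 1 or 2 of P2 or air replicate 3 of P3. The largest negative differences were Rprd2 (-1.63), Sgip1 (-1.53), Tox2 (-1.53), Clstn2 (-1.37), Lrrc15 (-1.34) and Pappa2 (-1.31), of which Rprd2 alone was called without the 3 arrays. None of the 12 genes was called with tissue covariates, and Rprd2 was not called as the mean of its probe sets. With any 1 array left out, Clstn2 was not called in 10 of 12 fits (-1.41 to -1.16) and Sgip1 in 7 (-1.58 to -1.29), and Pappa2 was not called without air replicate 3 of P2 (-1.09).

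From day 2 to day 3 the knockout's response to oxygen differed for 3660 genes (20.1%), 1561 positive (8.58%) and 2099 negative (11.5%). The air mice changed between these days as well as the hyperoxia mice. The median change of the DNA replication list was 0.76 at day 2 and -0.59 at day 3, and 28 of 31 differences were called negative. All 29 mitosis genes differed negatively, among them Mki67 (-1.99). On the DNA replication list knockouts in hyperoxia scored 0.36, 0.35 and 0.42 at P3 and -0.10, -0.23 and -0.06 at P4, and knockouts in air -0.18, -0.52 and -0.44 at P3 and 0.55, 0.37 and 0.61 at P4. On the mitosis list the air mice scored 0.31, -0.50 and -0.42 at P3 and 1.19, 0.86 and 1.18 at P4, and the hyperoxia mice 0.10, 0.25 and 0.22 and then -0.31, -0.77 and 0.17. Ccne2 went from 2.00 to -1.23 and Cyp1a1 from 2.10 to -1.02. Other large negative differences were those of Slitrk6 (-3.01), Dscc1 (-2.93), Col25a1 (-2.90) and Fat3 (-2.59).

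Inflammatory genes that were weak at day 2 were among the largest positive differences. Saa3 was 6.06 at day 3, a difference of 5.37, and Il6 was 4.44, a difference of 3.58. Serpina3n, an acute phase antiprotease, differed by 4.35, the EGF receptor ligand gene Ereg by 4.01 and the stromelysin gene Mmp3 by 3.68. Ccl2 (2.55), Cdkn1a (1.86) and Hmox1 (1.28) also went further at day 3. Myh8 (4.24) and Tnnt3 (4.05), both muscle genes, were in the same group, and neither was called without air replicate 2 of P3 (2.48 and 2.18). Myh8 lost the call in 11 of 12 such fits, and Tnnt3 also without hyperoxia replicate 1 of P4 (3.52).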

How the data were processed

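RNA from 42 newborn mouse lungs was hybridised to 1-colour arrays, 1 mouse per array. The authors deposited log2 expression values, made from scanner output with GCOS and RMA per the submitters' processing notes, which name no version. The 6 arrays compared are knockout mice of P3, 3 in hyperoxia and 3 in air. Of 45101 probe sets, 34958 had 1 gene symbol, 932 several and 9211 none. Each of 18194 genes was read from the probe set with the highest mean over the 42 arrays. Group means of all 14 groups were fitted with limma 3.58.1 in R 4.3.3 (28 residual degrees of freedom), with no filter on dim genes and Benjamini-Hochberg adjustment over all genes, and the script was tested on simulated data. Genotype and day differences are contrasts of the same fit.

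Genes named were the 12 largest called rises and the 12 largest called falls with groups that do not overlap, the 6 largest differences in each direction, up to 5 called genes per list, and 28 study genes whatever their values. The 12 falls called without air replicate 2, genes named for a promoter motif, and Trib3 were added after seeing the data. The members and the 56 gene lists were chosen with earlier results of these data known. Promoters are 250 bases before the start in RefSeq's GRCm38.p6 table, and 10 motif definitions were searched on both strands after expression values were seen. Promoters absent from that table were not used. Counted by gene, as the lists were, the shares with a match were 0.57% and 4.47% for the narrow and wider p53 pairs. They were 3.91% for the ATF4 element, 0.759% for E2F, 3.46% for the interferon element and 11.5% for the antioxidant element. For the strict and looser ER stress elements and CCACG they were 0.13%, 4.36% and 31%. Replicate numbers were not treated as pairs. The alternatives, among them cyclic loess, array weights, other probe set rules, covariates and leaving out single arrays, are described in the closing section. The number of arrays limits the precision of each value.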

Additional observations from a re-analysis of the deposited data

Results flagged for a closer look

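Each value here is a difference between 2 responses to oxygen that passed its own test. The knockout and wild-type responses at 2 days differed for 320 genes. Negative differences (knockout minus wild type, log2) were -2.32 for Gpx2, -2.23 for Adssl1, -1.41 for Ahnak2, -1.34 for Hspa1b, -1.31 for Mkrn1, -1.28 for Rprd2, -1.15 for Scnn1a, -1.08 for Srxn1, -0.94 for Cdkn1a, -0.81 for Hmox1, -0.74 for Arntl and -0.50 for Txnrd1. Positive differences were 2.24 for Hdc, 2.02 for Slitrk6, 1.88 for Ccne2, 1.72 for Slc17a2, 1.54 for Dscc1, 1.43 for Pde4b, 1.38 for Pola1, 1.36 for Ptger3, 1.12 for Nr1d2, 0.80 for Pdia6 and 0.61 for Calr.

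In knockouts, the response at day 2 differed from that at day 1 for 1601 genes. That count was 41 with scores of other tissues as covariates. It was 120 without the 3 knockout air arrays rich in muscle or thymus transcripts. Differences (day 2 minus day 1, log2) were 5.78 for Rag1, 5.31 for Trbv1, 5.09 for Ccr9, 4.79 for Cd3g, 4.35 for Prss16 and 4.33 for Bcl11b, and -1.63 for Rprd2, -1.53 for Sgip1, -1.53 for Tox2, -1.37 for Clstn2, -1.34 for Lrrc15 and -1.31 for Pappa2. None of these 12 genes was called with those covariates, and Rprd2 alone was called without the 3 arrays.

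The response at day 3 differed from that at day 2 for 3660 genes. Positive differences (day 3 minus day 2, log2) were 5.37 for Saa3, 4.35 for Serpina3n, 4.24 for Myh8, 4.05 for Tnnt3, 4.01 for Ereg, 3.68 for Mmp3, 3.58 for Il6, 2.55 for Ccl2, 1.86 for Cdkn1a and 1.28 for Hmox1. The muscle genes Myh8 and Tnnt3 were not called without air replicate 2 of P3 or with scores of other tissues as covariates. Negative differences were -3.23 for Ccne2, -3.13 for Cyp1a1, -3.01 for Slitrk6, -2.93 for Dscc1, -2.90 for Col25a1, -2.59 for Fat3 and -1.99 for Mki67.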

How the results depend on the processing

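Over the gene results and alternatives run, 3377 kept their direction and side of the threshold, 287 lost the call, 7 gained it and 15 changed sign. The knockout response at 2 days gave 2288 calls, 4391 with array weights and 3692 probe sets when each was tested on its own, and 1356 to 1899 with 1 array left out. Of the 126 named genes called in it, 26 lost the call with scores of other tissues as covariates and 21 without air replicate 2. The genotype difference gave 320 calls, 2084 with array weights, 172 with the mean of all probe sets, 503 probe sets on their own, and 137 to 318 with 1 array left out. The day 2 minus day 1 difference gave 1601 calls, 3310 with array weights, 2525 probe sets on their own, 340 with the arrays of the comparison alone, 41 with scores of other tissues as covariates, 120 without the 3 knockout air arrays rich in muscle or thymus transcripts (added after seeing the data), and 718 to 3122 with 1 array left out. The day 3 minus day 2 difference gave 3660 calls, 5812 probe sets on their own, and 2875 to 3889 with 1 array left out. The cause of these moves was not tested.

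The changes of sign were in genes not called. Gclm was -0.0289 after loess, -0.0332 as the mean of its probe sets, -0.1186 with tissue covariates and -0.0425 to 0.0898 with 1 array left out. Gpx2 was -0.0457 with tissue covariates and -0.068 to 0.1912 with 1 array left out. Vegfa was -0.1011 to 0.0272 with 1 array left out. Sftpc was -0.0669 as the mean of its probe sets. Ager was -0.0213 with array weights, -0.0083 as the mean of its probe sets, -0.0289 with tissue covariates and -0.0158 to 0.0616 with 1 array left out. Nfe2l2 was -0.857 as the mean of its probe sets.

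Replicate numbers are shared by the groups, but deviations of same-numbered air and hyperoxia mice correlated at 0.070, 0.110 and 0.061 across genes, and the best match was the same number for air replicates 1 and 2 but hyperoxia replicate 1 for air replicate 3. Not every correlation was over 0.1, so the numbers were not taken as pairs. A fit with the replicate block gave 2342 calls for the 2-day response (1647 higher and 695 lower), 315 for the genotype difference, 1654 for day 2 minus day 1 and 3720 for day 3 minus day 2, and changed no call of a named gene.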
